A study of Mus musculus with 4 samples.

Results

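Helper T cells that have met their antigen leave the lymph nodes and circulate as effector or memory cells. A set of such cells was picked out here from tumor-bearing mouse blood: CD4 T cells that carry RNA of effector genes but no detected RNA of 6 killer genes. A cell was taken when it had at least 1 UMI (unique molecular identifier, 1 counted RNA molecule) of Cd4, at least 1 of Cd3d, Cd3e or Cd3g, and none of Cd8a, Cd8b1 or Foxp3. It also had to show at least 3 of the 6 effector genes Lgals1, S100a4, S100a6, Ccl5, Cd44 and Cxcr3, and no UMI of the killer genes Gzma, Gzmb, Gzmk, Klrk1, Klrc1 and Klrd1. Of 5276 cells kept, 835 passed the CD4 gate, and 115 of these were members of the set: 4 from the untreated library, 8 from anti-PD-L1, 45 from anti-OX40/CpG and 58 from PDOX.

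The blood came from female C57BL/6 mice, 6 to 8 weeks old at the start, that carried MC-38 colon tumors. Blood was drawn on day 18 after tumor injection, red cells were lysed, and T cells were enriched with a negative selection kit. Anti-PD-L1 (clone MIH-5, 150 µg into the peritoneum) was given on days 10, 13 and 17. Anti-OX40 (clone OX86, 150 µg under the skin) was given on day 7 with 25 µg of CpG ODN1826, and PDOX mice had both treatments. Each treatment has 1 library, so mouse, library and treatment cannot be told apart, and no treatment was tested against another.

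PD-L1 is a ligand that restrains T cells through the receptor PD-1, and antibodies that block it release that brake. OX40 is a receptor on recently activated T cells, above all CD4 cells, whose stimulation helps them divide and survive, while CpG DNA alerts antigen-presenting cells through TLR9. Naive CD4 cells carry the lymph-node homing receptors CCR7 and L-selectin and the factors TCF7 and LEF1. On activation they lose these, gain integrins and S100 proteins, and take on a helper type under factors such as GATA3, T-bet, c-MAF or RORα, and some also become killers.

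The libraries differed in size more than in depth per cell. The untreated library held 862 deposited cells, of which 783 had between 200 and 2900 genes and were kept, with a median of 1517 UMIs per kept cell. All UMI totals per cell and values per 10000 leave out mitochondrial, ribosomal and hemoglobin genes, picked by symbol. Ribosomal genes with symbols other than Rps or Rpl and a digit, such as Rplp1, stayed in. For anti-PD-L1 the values were 1451, 1432 and 1714; for anti-OX40/CpG 1583, 1555 and 1658; and for PDOX 1538, 1506 and 1558. Members were deeper than CD4 cells with at most 1 of the 6 effector genes ("low CD4 cells", 510 cells), at a median of 1976 against 1543 UMIs. By pooled medians they were less deep than the other cells compared below. Those were CD4 effector cells with a killer gene (2143) and Foxp3-positive effector cells (2194). No doublet caller was run; doublets were limited by the gene maximum and by the absence of Cd8a and Cd8b1. Between 3 and 11 kept barcodes per library also occurred in another library, none of them a member. In the edgeR tests below each library gives 1 sum per cell set, and the fit removes each library's own level. The p-values weigh the difference between cell sets against counting error and its unevenness over the libraries. That unevenness is estimated by edgeR with information pooled over genes. Spread between mice of 1 treatment is not measured by them. A small p therefore does not mean that every library went the same way, and the number that did is given.

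The members' effector RNA follows from how they were selected, and is given as description with no test. Lgals1, which codes for the lectin galectin-1, had a UMI in 97.4% of members at 35.4 UMIs per 10000, S100a6 in 86.1% and S100a4 in 74.8%. The chemokine gene Ccl5 had a UMI in 53.9%, and its level ran from 4.58 per 10000 in untreated and 0.505 in anti-PD-L1 members to 42.4 in anti-OX40/CpG and 105 in PDOX. Cells just inside and just outside the threshold differed in genes the rule did not read as well. CD4 cells with exactly 3 of the 6 genes (43 cells) had 10 UMIs per 10000 of Id2, a brake on naive-type transcription, against 3.61 in those with exactly 2 (54 cells). S100a10 stood at 36.7 against 15.8, and Maf had a UMI in 23.3% against 1.85% of cells. Ccr7 differed less, at 4.52 against 6.23 per 10000. By library Id2 stood at 4.08 against 1.02 in anti-PD-L1, 8.86 against 2.31 in anti-OX40/CpG and 16 against 8.71 in PDOX. In untreated Id2 went the other way, at 0 in the 1 cell with exactly 3 genes against 3.73 in the 5 cells with exactly 2. Maf rested mostly on anti-OX40/CpG, with 19 of its 23 UMIs, and Ccr7 went the other way in anti-PD-L1, at 8.74 against 5.12.

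The untreated members stand apart from those of the other libraries by monocyte RNA. Lyz2, the lysozyme gene of monocytes and neutrophils, had 614 UMIs in 3 of these 4 cells, 343 of them in 1 cell, or 468 per 10000 UMIs; 2 of the cells had at least 10. In the members of the other libraries it had 2, 1 and 3 UMIs. Over 10 monocyte genes the untreated members had 760 UMIs per 10000 (95% interval 713 to 808), against 9.09 in anti-PD-L1, 5.56 in anti-OX40/CpG and 7.75 in PDOX. Plac8, a gene of inflammatory monocytes, had 95 UMIs and Tyrobp, a signalling adaptor of myeloid and NK cells, had 79. Of the 4, 3 had a UMI of at least 1 of 8 marker genes of other cell types, but so did 39 of the 87 untreated low CD4 cells, in which Lyz2 reached at most 3 UMIs per cell. With fewer than 5 members this library entered no test, and its shares are given below with and without such cells.

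RNA of other cell types was rare in the members of the 3 treated libraries. B cell markers gave 0, 0 and 2 UMIs in members of anti-PD-L1, of anti-OX40/CpG and of PDOX, neutrophil markers 0, 1 and 4, NK markers 0, 2 and 3, and innate-like and gamma-delta T cell markers 0, 1 and 0. Platelet markers gave 1, 0 and 15, of which Ppbp, a platelet chemokine gene, made up 10 in PDOX. The treated members thus carry T cell RNA with little else, though 3 of 8, 2 of 45 and 12 of 58 had at least 1 UMI of another type's marker.

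Members made up a larger share of CD4 cells in both libraries with anti-OX40/CpG. They were 4.04% (95% interval 1.11 to 10) of 99 gated CD4 cells in untreated, 4.12% (1.80 to 7.96) of 194 in anti-PD-L1, 17.6% (13.1 to 22.8) of 256 in anti-OX40/CpG and 20.3% (15.8 to 25.4) of 286 in PDOX. These and all later intervals cover counting error only, not differences between mice. With cells that carry markers of other types left out, the shares were 1.92% (0.0487 to 10.3), 3.68% (1.20 to 8.37), 17.7% and 18.6%. CD4 effector cells with at least 1 killer gene ("cytotoxic-type", 145 cells) were 2.02%, 3.09%, 13.7% and 35.7% of gated CD4 cells. The intervals of anti-OX40/CpG and PDOX overlap for the non-cytotoxic cells but not for the cytotoxic-type cells, at 9.71 to 18.5 and 30.1 to 41.5. Among all CD4 effectors the non-cytotoxic part was 56.2% (44.7 to 67.3) in anti-OX40/CpG and 36.2% (28.8 to 44.2) in PDOX.

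**Figure D1:**
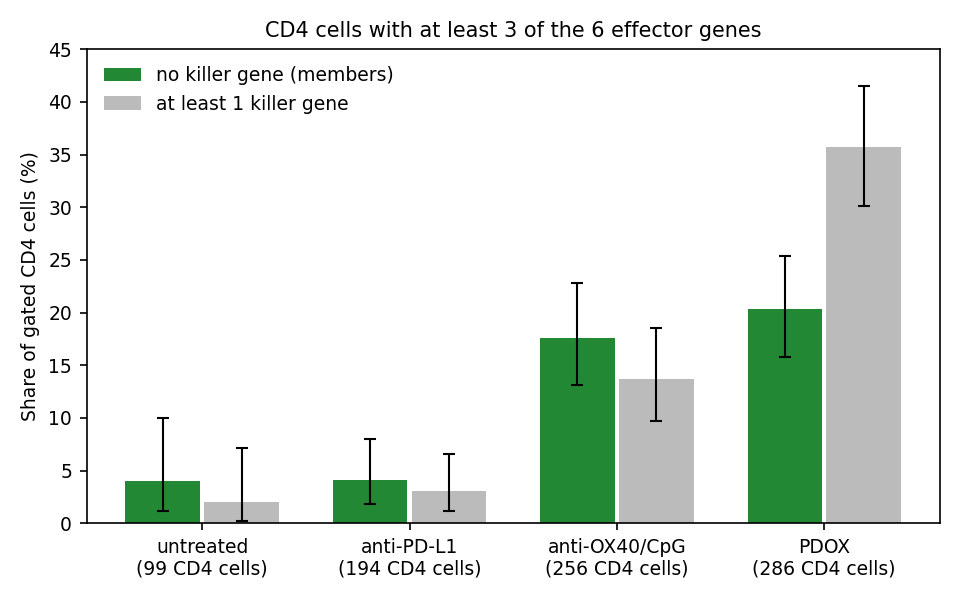
Shares of gated CD4 cells with at least 3 of the 6 effector genes, split by detection of a killer gene. Bars show 1 library each, with 95% Clopper-Pearson intervals.

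The split between both kinds of effector in PDOX depended on depth. When every cell was thinned to 750 UMIs before the rule was applied, members were 0% of CD4 cells in untreated (upper bound 6.60), 3.03% (0.629 to 8.60) in anti-PD-L1, 7.94% (3.87 to 14.1) in anti-OX40/CpG and 29.3% (22.4 to 36.9) in PDOX. At equal depth the interval of anti-OX40/CpG thus overlaps those of untreated and anti-PD-L1, and that of PDOX does not. The non-cytotoxic part of the effectors in PDOX was then 60.0% (48.4 to 70.8), against 36.2% at full depth. In anti-OX40/CpG it was 55.6% (30.8 to 78.5), against 56.2% at full depth, so the difference between these libraries in this part was no longer seen. The intervals of the member shares of these libraries, which overlap at full depth, no longer did, and cytotoxic-type cells were 6.35% (2.78 to 12.1) and 19.5% (13.7 to 26.4). Thinning can remove a cell's only killer UMIs and so make it a member, and it can remove effector UMIs as well. At full depth and other thresholds the shares with anti-OX40/CpG were again the higher ones: with at least 2 of the 6 genes the 4 shares were 9.09%, 9.28%, 28.1% and 24.5%, and with at least 4 they were 3.03%, 1.03%, 9.77% and 14.7%.

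Against low CD4 cells of the same library, members differed in many genes. The edgeR test over 3 libraries (8 against 168 cells in anti-PD-L1, 45 against 146 in anti-OX40/CpG, 58 against 109 in PDOX) covered 2351 genes outside the rule. After Benjamini-Hochberg adjustment 127 were higher in members (5.40%) and 150 lower (6.38%), with a median log2 fold change over all tested genes of −0.03. Counts and medians of gene lists in this comparison stand beside these values, and cover only genes with enough counts to be tested. The counts were 50 and 53 without the anti-OX40/CpG library, 77 and 96 without PDOX, and 149 and 157 without anti-PD-L1. The number of calls thus leans on the anti-OX40/CpG and PDOX cells, and most of the leading genes did not. Of the 20 genes with the largest called changes in all 3 libraries, 17 kept their call without anti-OX40/CpG and 20 without PDOX. Low CD4 cells, unlike members, could carry UMIs of killer genes. With such cells left out, 268 of the 277 calls could be tested and 224 were kept. Of the 20 leading genes 18 could then be tested, and 18 kept their calls.

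**Figure D2:**
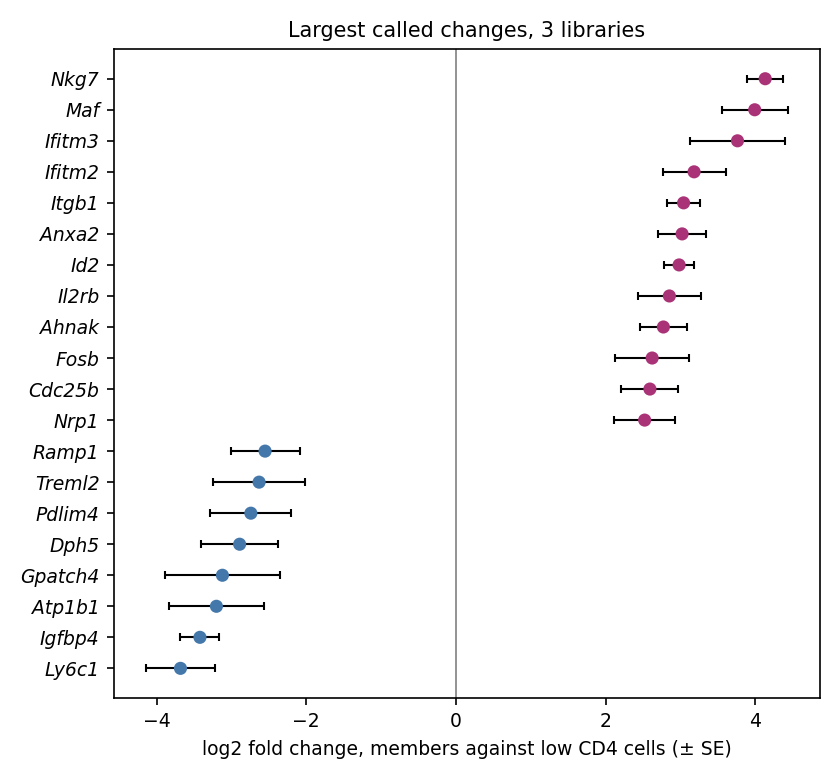
Called genes with the largest changes between members and low CD4 cells, in the same direction in 3 of 3 libraries. Points are edgeR log2 fold changes and bars are standard errors.

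The strongest increase was in a gene of cytotoxic granules, in members selected for having no UMI of 6 killer genes. Nkg7, whose protein helps granules release their content, had 6.56, 12.7 and 24.2 UMIs per 10000 in members of anti-PD-L1, of anti-OX40/CpG and of PDOX, against 0.651, 0.916 and 0.577 in low CD4 cells. It was higher in 3 of 3 libraries (log2 fold change 4.13, edgeR with Benjamini-Hochberg adjusted p 1.6e-63), and 68 of the 115 members had a UMI of it. Of 14 cytotoxic genes outside the rule 3 could be tested, and Nkg7 and the protease inhibitor gene Ctla2a (1.99) were called higher, Ctla2a not without PDOX. Nkg7 RNA is thus present in cells without a UMI of the 6 killer genes in the rule. Of killer genes outside it, Klrg1 had a UMI in 7 members and Gzmm in 3. A cell whose killer RNA went unsampled would also pass the rule, and how many members are such cells was not tested.

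Id2 separated members from low CD4 cells and also varied between the libraries. Its protein blocks E proteins, which keep T cells naive. Members had 5.05 (2.42 to 9.29), 16.6 (14.1 to 19.3) and 23.3 (20.6 to 26.4) UMIs per 10000 in these libraries in the same order, while low CD4 cells stayed at 1.95, 1.79 and 1.73. Id2 was higher in 3 of 3 libraries (log2 fold change 2.98, edgeR with Benjamini-Hochberg adjusted p 2.2e-45). In low CD4 cells the libraries differed by less than counting error; the source of the difference among members was not tested. Between PDOX and anti-OX40/CpG members Id2 had a ratio of 1.41 (1.15 to 1.73) and Nkg7 one of 1.91 (1.54 to 2.39).

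**Figure D3:**
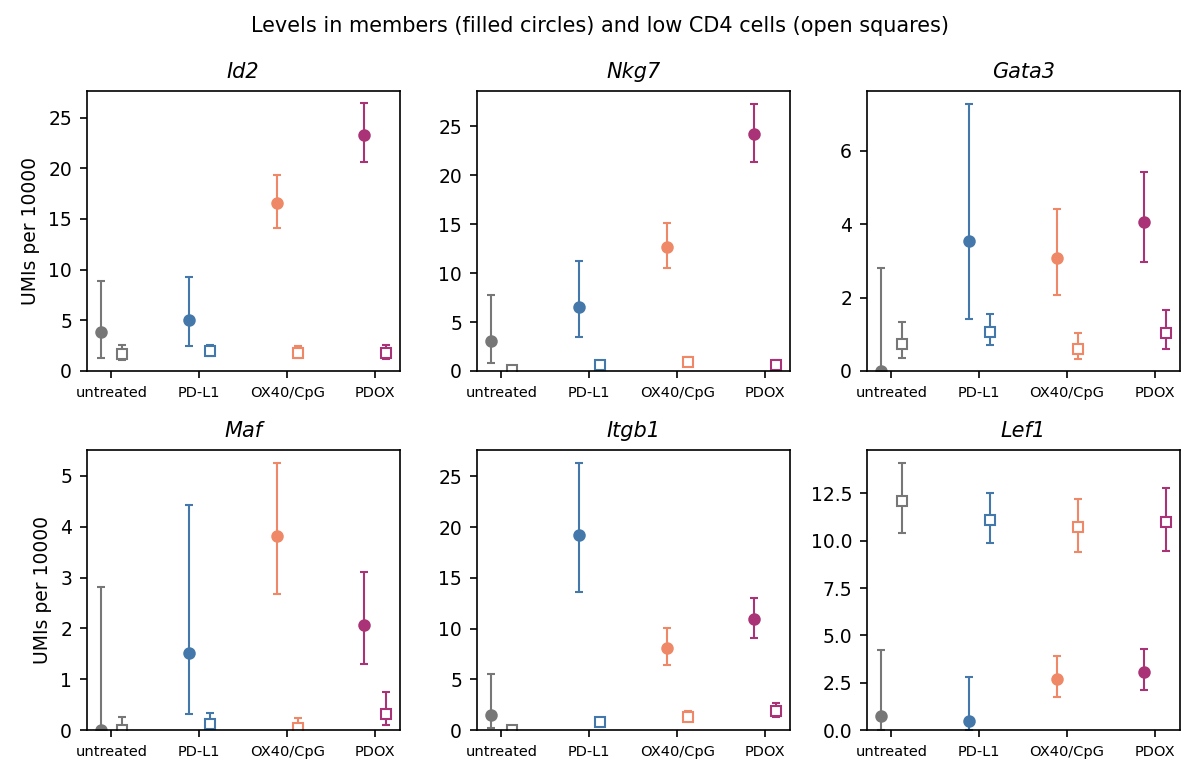
UMIs per 10000 of 6 genes in members and low CD4 cells of each library, with 95% Poisson intervals. The untreated members are 4 cells, 2 of them with at least 10 UMIs of Lyz2.

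Several helper lineage factors rose in members, led by Maf. Maf codes for c-MAF, which drives IL-4, IL-10 and IL-21 in helper cells, and had 1.51, 3.81 and 2.07 UMIs per 10000 in the treated libraries' members against 0.115, 0.0436 and 0.321 in low cells. It was higher in 3 of 3 libraries (log2 fold change 3.99, edgeR with Benjamini-Hochberg adjusted p 3.1e-17). Rora, the gene of the nuclear receptor RORα, stood at 2.02, 1.75 and 1.98 against 0.115, 0.393 and 0.577 (log2 fold change 2.15, adjusted p 5.2e-06, higher in 3 of 3 libraries by edgeR). Gata3, the main factor of type 2 helpers, stood at 3.53, 3.09 and 4.05 against 1.07, 0.611 and 1.03, a log2 fold change of 1.96. Stat4, which relays IL-12, was not called (0.82), so of 4 tested lineage factors 3 were higher, with a median of 2.05 against −0.03 over all tested genes. The increases in Maf, Rora and Gata3 kept their calls without each library in turn, and with the rule on thinned cells Maf alone of these was called.

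The same factors were also read cell by cell. Free RNA was read from 97 B cells (median 1290 UMIs), and shares were taken after thinning each cell to 750 UMIs. Of these B cells 6 came from anti-OX40/CpG and 27 from PDOX, which gave most members, so the background of those libraries is known less well. Gata3 had a UMI in 22.3% of members (15.0 to 31.2), 5.39% of low CD4 cells and 1.10% of B cells (4.0% of 25 from PDOX), and in 51.3% of members without thinning. Maf was seen in 14.3%, 1.29% and 1.10% (29.6% of members without thinning), and Rora in 16.1%, 2.16% and 0% of these cells (29.6%). Tbx21, the gene of T-bet, was rarer and was seen in 2.68% of members (7.83% without thinning). It was seen in 0.216% of low CD4 cells and in 0 of 91 thinned B cells, for which 3 counts set an upper limit of 3.30%. Without thinning it was seen in 0.196% of low CD4 cells and in 0 of 97 B cells, but members are deeper than low CD4 cells. After thinning the intervals of members (0.556 to 7.63) and low CD4 cells (0.00546 to 1.19) overlap. Of the 3 thinned members with a UMI of Tbx21, 2 came from anti-PD-L1. The B cells are too few to set a background this low. Bcl6, the factor of follicular helpers, had no UMI in 115 members, an upper limit of 2.61% from 3 counts. Gata3 was seen with Maf in 19 members and with Rora in 18, and Maf with Rora in 11; whether this exceeds chance was not tested. A factor that is present can go unsampled, so helper types could not be assigned at this depth.

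**Figure D4:**
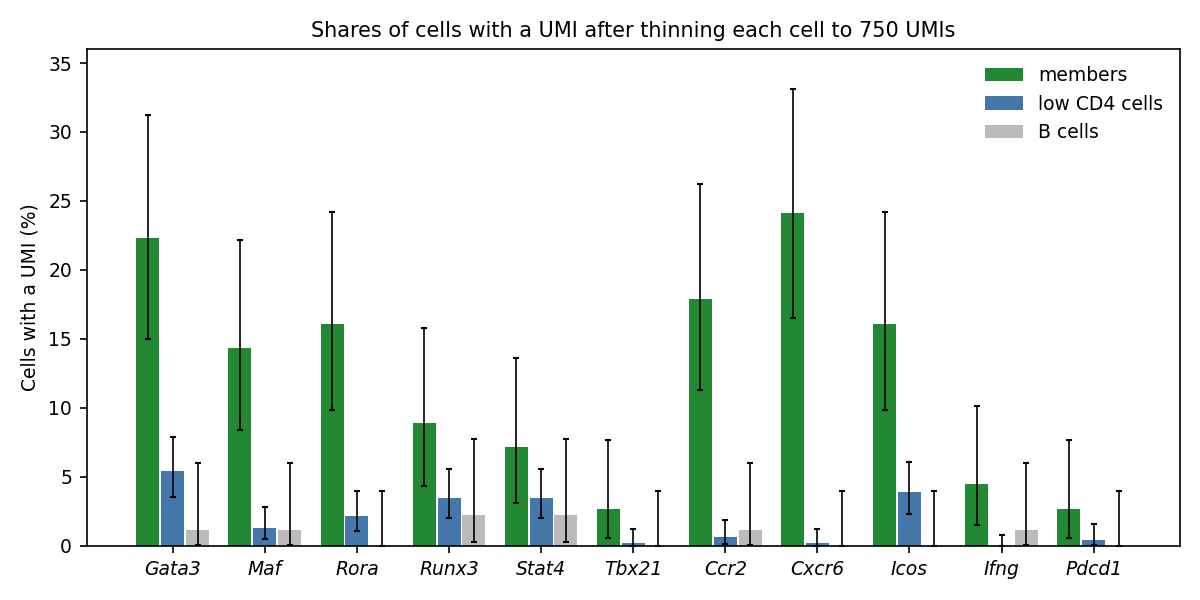
Shares of cells with a UMI of helper factors, receptors and Ifng after thinning to 750 UMIs per cell, in members, low CD4 cells and B cells. Bars carry 95% Clopper-Pearson intervals.

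Of the 13 helper cytokine genes listed, Tgfb1 was the most often seen, and not more than in B cells. It had a UMI in 12.5% of thinned members (7.01 to 20.1, and 29.6% without thinning), 10.3% of low CD4 cells and 31.9% of B cells. With a share above both kinds of CD4 cells, B cells cannot give the level of free RNA for Tgfb1. Ifng, the cytokine of type 1 helpers, had a UMI in 4.46% of thinned members (1.47 to 10.1), 0% of low CD4 cells and 1.10% of B cells, and in 6.96% of members without thinning; the intervals of members and B cells overlap. Il2, a T cell growth factor, had one in 3.57%, 4.31% and 3.30% (13% of members without thinning), within counting error of the B cell share. Il17a had a UMI in 1 member, and Il4, Il5, Il13, Il21, Il10 and Csf2 in 0 of 115. Il2 (log2 fold change 0.72) and Tgfb1 (0.38) could be tested against low CD4 cells, and edgeR called 0 of them, with 543 of the 2351 genes at an unadjusted p under 0.05; DESeq2 called 37 genes higher and 38 lower over all genes. Stat4 (7.14% of thinned members, 20.0% without thinning) and Runx3 (8.93%, 24.3%), which work with T-bet, were seen in 2.20% of B cells each, with overlapping intervals.

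Members had lost much of the naive program. Igfbp4, a secreted growth-factor binder of naive T cells, had 1.01, 1.34 and 0.901 UMIs per 10000 in the treated libraries' members against 10.4, 11 and 12 in low CD4 cells. It was lower in 3 of 3 libraries (log2 fold change −3.42, edgeR with Benjamini-Hochberg adjusted p 4.7e-36). Lef1 stood at 0.505, 2.68 and 3.06 against 11.1, 10.7 and 11 (−2.15, adjusted p 2.1e-20 by edgeR, 3 of 3 libraries). Ly6c1, a surface protein gene of naive and central memory cells, had 0, 3 and 2 UMIs in members, and its log2 fold change was −3.68 (edgeR adjusted p 1.7e-13, 3 of 3 libraries). Of 16 naive T cell genes 14 were lower, with a median of −1.32 against −0.03 over all tested genes. Of the 14, 7 kept the call without anti-OX40/CpG and 10 without PDOX; Ccr7, Dapl1 and Nsg2 lost it in both cases. Dapl1 (−1.22) was lower in 2 of 3 libraries, because 1 anti-PD-L1 member held 28 UMIs of it.

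Further decreases were named, and cytokine receptors went both ways. Ramp1, the receptor subunit for a sensory-nerve peptide, stood at 1.01, 0.412 and 0.0901 against 2.18, 2.09 and 1.47 UMIs per 10000 (−2.55). The further named decreases were Atp1b1 (−3.20), Gpatch4 (−3.12), Dph5 (−2.89), Pdlim4 (−2.74) and Treml2 (−2.63), and Atp1b1, Gpatch4 and Treml2 were not called without anti-OX40/CpG. With DESeq2 these 3 and Pdlim4 were not called. Of 7 tested cytokine receptors 2 were higher, Il2rb (2.85) and Ifngr1 (0.98), and 3 lower, Il21r (−1.96), Il4ra (−1.59) and Il6ra (−0.89), with a median of −0.89. Il2rb codes for the shared chain of the IL-2 and IL-15 receptors and stood at 1.51, 2.16 and 2.34 against 0.191, 0.262 and 0.321. Without anti-OX40/CpG 1 of these 5 receptors, Il2rb, kept its call, and without PDOX 3 did. Il2rb thus held its call without each of the 3 libraries in turn, but with the rule on thinned cells Il2rb, Dph5 and Ramp1 were not called.

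Some integrin and adhesion genes were higher in members, led by Itgb1. Itgb1, the integrin chain that binds matrix and endothelium, had 19.2, 8.13 and 10.9 UMIs per 10000 in members of anti-PD-L1, of anti-OX40/CpG and of PDOX, against 0.804, 1.31 and 1.86 in low CD4 cells. It was higher in 3 of 3 libraries (log2 fold change 3.04, edgeR with Benjamini-Hochberg adjusted p 6.4e-40); 13 of the 38 UMIs in anti-PD-L1 came from 1 cell. Its partner Itga4 also rose (1.18), so the RNA of both chains of the integrin VLA-4 was higher. Of 11 integrin and adhesion genes 4 were higher and 1, Itga6, lower (median 0.35), and 2 of these 5 kept their call without anti-OX40/CpG and 3 without PDOX.

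Most tested cytoskeletal and calcium-binding genes that mark effector T cells were higher. S100a10, annexin A2's partner, stood at 31.3, 39.8 and 43.6 UMIs per 10000 in members against 12.7, 7.72 and 9.75, and Anxa2 itself had a log2 fold change of 3.02. Ahnak (2.77), a giant scaffold protein of the membrane, Crip1 (1.59), a LIM-domain protein, Capg (1.53), an actin capper, and Lgals3 (2.51), the gene of galectin-3, were higher too, Lgals3 in 2 of 3 libraries. Of 16 tested genes of this kind 12 were higher and 1, Tmsb10, lower, and 3 were not called, with a median of 1.39 against −0.03. Without anti-OX40/CpG 10 of the 13 kept the call, all but Capg, Tagln2 and Tmsb10, and without PDOX 12; Ahnak and Capg were not called with the rule on thinned cells. The rule itself reads S100a4 and S100a6, so genes that move with these were favored by the selection.

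Genes linked to regulatory T cells were partly higher, in members selected for having no UMI of Foxp3. A regulatory cell whose Foxp3 RNA went unsampled would pass the rule, and how many members are such cells was not tested. Nrp1, a semaphorin co-receptor, had 2.02, 1.85 and 2.16 UMIs per 10000 in members against 0.306, 0.0873 and 0.641 (log2 fold change 2.52). Ikzf2, the gene of Helios, had 0, 24 and 27 UMIs in members, with 16 of the 24 in 1 anti-OX40/CpG cell, and was higher in 2 of 3 libraries (2.0). Of 14 regulatory genes listed 5 could be tested, and 4 were higher, with a median of 1.53 against −0.03 over all tested genes. Of the 4, 1 kept its call without anti-OX40/CpG, Nrp1, and 3 without PDOX. Nrp1 was not called with the rule on thinned cells. Among costimulatory and inhibitory receptors Tnfrsf18 (1.0) was higher and Cd27 (−0.90) lower of 6 tested (median 0.29), and neither was called without anti-OX40/CpG or without PDOX.

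Interferon-linked and membrane-defense genes went both ways. Ifitm3 (3.76) and Ifitm2 (3.18), which block virus entry, were among the named increases, at 1.01 to 1.26 and 1.01 to 4.41 UMIs per 10000 in treated members; Ifitm3 is also on the monocyte list and was not called with DESeq2. Of 6 tested Ifitm and Ly6 genes 3 were higher and 1 lower (median 0.31), and Ly6a (0.49) lost its call without anti-OX40/CpG or PDOX. The median of 11 interferon-stimulated genes was −0.21; Ifi27l2a (0.96) and Ly6a were higher, and the GTPase genes Igtp (−1.32) and Ifi47 (−0.75) lower. Ifi27l2a kept its call without each library in turn, while Igtp lost it without anti-OX40/CpG or PDOX, and Ifi47 without anti-OX40/CpG or anti-PD-L1. Interferon-stimulated genes thus had no common direction.

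Genes of division, metabolism and early signalling were called in both directions. Of 5 cell cycle genes Hmgb2 (1.65) and H2afz (0.94) were higher and Tubb5 (−0.85) and Tuba1b (−0.92) lower (median 0.43), and 2 of the 4 calls were kept without anti-OX40/CpG and 2 without PDOX. Of 8 glycolysis enzymes Tpi1 (1.36) and Gapdh (0.68) were higher (median 0.07); 0 of these were kept without anti-OX40/CpG, and Tpi1 was lost without any 1 library. Of 12 immediate early genes Fosb (2.62) was higher and 4 lower, among them Jun (−1.40) (median −0.36), with 2 of the 5 kept without anti-OX40/CpG and 4 without PDOX. The median of 11 T cell receptor signalling genes was 0.04; Thy1 (0.62), a surface protein of T cells, was higher, but not called without anti-OX40/CpG or without PDOX. Cdc25b (2.59), a phosphatase of mitotic entry, was a named increase, kept without each library but not with the rule on thinned cells. Most of the 16 cell cycle genes listed had too few counts to be tested, so most of the division program was not measured here.

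Of the remaining lists, effector and memory factors had 2 of 5 higher, Id2 and Ikzf2 (median 0.46), and homing receptors 1 of 2, S1pr4 (0.82, median 0.55), not called without anti-OX40/CpG or without PDOX. Of 3 tested monocyte markers Ifitm3 was higher and Ctss (−1.18) lower (median 0.40), with Ctss not called without anti-OX40/CpG. No B cell, neutrophil, NK, innate-like or platelet marker had enough counts to be tested.

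A pair of tissue-homing receptors lay below the count filter of the test but were frequent in members. Cxcr6, a receptor for a chemokine of inflamed tissue, had 0, 0, 33 and 46 UMIs in members of the 4 libraries (untreated, then anti-PD-L1, then anti-OX40/CpG, then PDOX), or 0, 0, 3.40 (2.34 to 4.77) and 4.14 (3.03 to 5.53) per 10000. The upper limits from 3 counts were 2.29 for untreated, close to the lower bound for anti-OX40/CpG, and 1.51 for anti-PD-L1. After thinning, Cxcr6 had a UMI in 24.1% of members (33.9% without thinning), 0.216% of low CD4 cells and 0% of B cells. Among cytotoxic-type cells 2 of 6 from anti-PD-L1 had a UMI of Cxcr6, so its RNA also occurs in CD4 effectors without anti-OX40/CpG. Ccr2, which guides cells to inflamed sites, had one in 17.9% of members (31.3%), 0.647% of low CD4 cells and 1.10% of B cells (4.0% of those from PDOX); its 11 UMIs in untreated members came from 1 cell. Id2 by the same measure was seen in 62.5% (77.4%), 9.91% and 3.30% (8.0% of those from PDOX).

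Receptors that the treatments target were sparse in these cells. Tnfrsf4, the gene of OX40, had 0, 0, 8 and 8 UMIs in members of the 4 libraries in that order. It was seen in 1.79% of thinned members, which is 2 cells, 2.16% of low CD4 cells and 0% of B cells. Without thinning it was seen in 12.2% of members (6.82 to 19.6) and 3.14% of low CD4 cells (1.80 to 5.04), which are less deep. Pdcd1, the gene of PD-1, had 0, 0, 9 and 7 UMIs and was seen in 2.68% (11.3%), 0.431% and 0%. Cd274, the gene of PD-L1, had 0, 0, 3 and 1 UMIs. Icos, a costimulatory receptor of helpers, was more frequent, in 16.1% of thinned members (33.0% without thinning), 3.88% of low CD4 cells and 0% of B cells. At these counts a difference in Tnfrsf4 or Pdcd1 between treatments was not detectable.

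Between members and cytotoxic-type CD4 effectors of the same library few genes outside the rule were called. Over 3 libraries (8 against 6 cells in anti-PD-L1, 45 against 35 in anti-OX40/CpG, 58 against 102 in PDOX) edgeR tested 1627 genes, of which 4 were higher in members (0.246%) and 5 lower (0.307%) after Benjamini-Hochberg adjustment. Tcf7, a factor of naive and memory cells with capacity to renew, had 3.03, 4.01 and 4.41 UMIs per 10000 in members against 0.702, 2.06 and 1.72 (log2 fold change 1.23, adjusted p 0.0011 by edgeR, higher in 3 of 3 libraries). Nkg7 stood at 6.56, 12.7 and 24.2 against 17.5, 25 and 44.3 (−0.95, adjusted p 1.0e-10 by edgeR, lower in 3 of 3), and Lgals3 at 0.505, 2.06 and 3.42 against 2.81, 7.04 and 10.1 (−1.66, 2.9e-10, 3 of 3). In these libraries Nkg7 in members thus lay between low CD4 cells and cytotoxic-type cells. The part that cells with unsampled killer RNA have in this level was not tested. Tcf7 stood at 7.35, 7.16 and 6.67 in low CD4 cells, but its call against cytotoxic-type cells was lost without any 1 of the 3 libraries.

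The other calls of this comparison went both ways. Smad7 (1.0), an inhibitor of TGF-β signalling, Ifi27l2a (0.54) and the ribosomal gene Rplp1 (0.47), which was not left out by symbol, were higher. Ctsd (−0.87), a lysosomal protease gene, was lower, and each of these changes was seen in 3 of 3 libraries. Ifitm1 (−2.69) and Ifitm2 (−1.78) were lower in 2 of 3 libraries, and neither could be tested without PDOX. The genes called higher and lower numbered 1 and 5 without anti-PD-L1, 0 and 4 without anti-OX40/CpG, and 2 and 5 without PDOX; Nkg7 and Lgals3 kept their calls in each case, and Tcf7 in none. Nkg7 and Lgals3 were not called with at least 4 of the 6 genes, with at least 2 UMIs of Cd4, with the rule on thinned cells or without the library block. With DESeq2, 0 genes were higher and 2 lower, and 110 genes had an unadjusted p under 0.05 in edgeR. Id2 (−0.12), Maf (0.41), Gata3 (0.50) and Rora (−0.23) were not called. Cxcr6 (−0.59) and Ccr2 (−0.69) were not called either but were lower in members in 3 of 3 libraries. Their pooled count ratios were 0.581 (0.442 to 0.759) and 0.596 (0.437 to 0.806), which mix libraries with unlike cell numbers. By library Cxcr6 stood at 0 against 1.40, 3.40 against 3.52 and 4.14 against 7.13 per 10000. Ccr2 stood at 0.505 against 2.11, 2.26 against 4.73 and 3.60 against 4.76.

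By lists most medians were near that of all genes. The medians were 0.21 for 5 lineage factors, −0.12 for 5 effector and memory factors, 0.29 for 10 naive genes, −0.32 for 18 S100, annexin and cytoskeletal genes, −0.10 for 10 integrins and −0.52 for 3 cytotoxic genes, against 0.00 over all tested genes. Of these only Tcf7 in the naive list, Lgals3 in the cytoskeletal list and Nkg7 in the cytotoxic list were called. The cytotoxic list was among those farther off. Also farther off were 6 Ifitm and Ly6 genes (−0.60), with Ifitm1 and Ifitm2 lower, and 7 interferon-stimulated genes (0.54), with Ifi27l2a higher. So were 4 homing receptors (−0.50), with none called.

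Foxp3-positive CD4 cells with at least 3 of the 6 effector genes, 13 cells with a median of 2194 UMIs, served to compare members with activated regulatory T cells. In anti-OX40/CpG (45 against 5 cells) and PDOX (58 against 6) edgeR tested 1105 genes and called 2 higher in members (0.181%) and 8 lower (0.724%) after Benjamini-Hochberg adjustment. Id2 had 16.6 and 23.3 UMIs per 10000 in members against 2.29 and 1.27 (log2 fold change 3.80, adjusted p 8.9e-07 by edgeR, higher in 2 of 2 libraries), and Nkg7 12.7 and 24.2 against 2.29 and 5.71 (2.33, 3.7e-04, 2 of 2). Ikzf2 had 2.47 and 2.43 against 25.2 and 19.7 (−2.97, adjusted p 6.7e-08 by edgeR, lower in 2 of 2). Izumo1r, the folate receptor 4 gene of regulatory cells, had 1.85 and 0.901 against 4.58 and 16.5 (−2.86), and Capg 4.12 and 2.52 against 17.2 and 8.25 (−1.69). Id2 and Ikzf2 thus differed in opposite directions, but with the 5% of cells with the most UMIs left out 0 of the 10 genes, these included, were called by edgeR.

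The remaining decreases against Foxp3-positive effectors were Cd74 (−2.52), Glrx (−2.15), Samhd1 (−1.76), Pim1 (−1.36) and Itgb7 (−1.25), each lower in 2 of 2 libraries. Of 5 tested regulatory genes 3 were lower (median −1.69 against 0.09 over all tested genes), and Tnfrsf18 missed the threshold (−1.65, adjusted p 0.084 by edgeR, lower in 2 of 2). Lineage factors did not separate the cells, with 0 of 4 called and 125 of all tested genes at an unadjusted p under 0.05 in edgeR; DESeq2 called 1 gene higher and 1 lower. Without TMM scaling the median over all genes moved from 0.09 to −0.09, so changes of that size have no fixed direction. The comparison rests on 11 Foxp3-positive cells, and no library could be left out with a test remaining.

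Members from PDOX and from anti-OX40/CpG were compared gene by gene by counts, with no test between the libraries. Of 671 genes with at least 50 UMIs in both together, 12 were at least 2-fold higher in PDOX (1.79%) and 11 at least 2-fold lower (1.64%), and the 95% counting interval of the ratio lay above 1 for 59 genes and below 1 for 49. Several of the largest ratios had the same direction in low CD4 cells: Gm10076 had a ratio of 0.0381 in members and 0.0354 in low cells, Gm10073 0.0946 and 0.143, Gm2000 0.263 and 0.386, and Gm8797 2.21 and 2.32. These ratios were thus not confined to members, and their source was not tested.

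For a few other genes the interval in low cells included 1, though the difference between members and low cells was not tested. Npm3, a nucleolar chaperone of ribosome assembly, had 4.14 UMIs per 10000 in PDOX against 1.34 (ratio 3.10, 1.65 to 6.25) and a ratio of 0.903 (0.603 to 1.34) in low cells. Lfng, which modifies Notch, had 4.41 against 1.85 (2.38, 1.36 to 4.35), with 0.992 (0.585 to 1.66) in low cells, and Icos 1.62 against 3.60 (0.450, 0.240 to 0.817), with 0.864 (0.354 to 2.0). Anxa2 had 1.35 against 4.84 (0.279, 0.145 to 0.509), of which 17 of the 47 anti-OX40/CpG UMIs came from 1 cell, and 3.43 (0.783 to 20.6) in low cells. Ifitm2, by contrast, was higher in PDOX in members (3.30) and in low cells (5.88, 1.17 to 56.8). Since 1 mouse or pool stands behind each library, differences of this size between mice of 1 treatment were not measured. Of the helper factors Maf was lower in PDOX by UMIs, with 2.07 against 3.81 (ratio 0.544, 0.309 to 0.940). The shares of members with a Maf UMI differed less, at 29.3% (18.1 to 42.7) in PDOX and 33.3% (20.0 to 49.0) in anti-OX40/CpG. The interval for Gata3 included 1, with 4.05 against 3.09 (1.31, 0.809 to 2.16).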

How the data were processed

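The authors sequenced T cells from blood with 10x Chromium 3′ v2, and their notes name mm10 and Seurat 2. The deposited matrices hold UMI counts (unit: count) for 27998 genes in 4 libraries, 1 per treatment; the library labelled OX40 was taken as anti-OX40/CpG. Cells with 200 to 2900 genes were kept. The 19 rule genes were left out of tests. Left out of gene counts, UMI totals, values per 10000 and tests were 130 mitochondrial, ribosomal and hemoglobin genes. The ribosomal ones were picked by symbol (Rps or Rpl followed by a digit), so Rplp1 stayed in. Kept cells held 1273960, 2757977, 2692437 and 2591444 UMIs outside these 130 genes (untreated, then anti-PD-L1, then anti-OX40/CpG, then PDOX), of 2392650, 4969885, 4931178 and 4121932 deposited over all cells and genes. UMIs were summed per library and cell set (at least 5 cells each) and tested with edgeR 4.0.16 in R 4.3.3 (quasi-likelihood, TMM, filterByExpr, library as block, Benjamini-Hochberg adjusted p under 0.05). Intervals are Poisson, Clopper-Pearson or conditional binomial at 95%, computed with Python 3.11.15 and scipy 1.17.1. Depth per library is given in the report; 3 counts set the upper limit of a 0. Named genes are those called that changed most and alike in all libraries (up to 12 higher and 8 lower against low CD4 cells, 8 and 8 otherwise), the 8 highest and 8 lowest ratios, the study's own genes and members of 23 lists. Others were chosen after their values were seen. The rule for members and the lists were chosen with earlier results from these data known. Alternatives were other thresholds of the rule, cells left out, thinning to 750 UMIs, DESeq2 1.42.0, filters, scaling, block and leave-one-out.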

Additional observations from a re-analysis of the deposited data

How the results depend on the processing

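The shares of members among gated CD4 cells moved with the rule. With at least 2 of the 6 genes they were 9.28% in anti-PD-L1 and 28.1% in anti-OX40/CpG; with at least 4, 1.03%, 9.77% and 14.7% in PDOX. With at least 2 UMIs of Cd4 they were 0% in untreated (0 to 16.8, of 20 cells) and 26.9% in anti-OX40/CpG. With the rule on thinned cells they were 0% in untreated, 3.03% in anti-PD-L1, 7.94% in anti-OX40/CpG and 29.3% in PDOX. Both libraries with anti-OX40/CpG had the higher values in each of these. Some intervals overlapped. With the rule on thinned cells that of anti-OX40/CpG (3.87 to 14.1) overlapped those of untreated (0 to 6.60) and anti-PD-L1 (0.629 to 8.60). With at least 4 genes that of anti-OX40/CpG (6.42 to 14.1) overlapped that of untreated (0.629 to 8.60). With 2 UMIs of Cd4 that of PDOX (12.9 to 29.7) overlapped those of untreated (0 to 16.8) and anti-PD-L1 (0.0649 to 13.5).

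Against low CD4 cells the genes called higher and lower were 84 and 98 with at least 2 of the 6 genes, 55 and 77 with at least 2 UMIs of Cd4, 19 and 23 with the rule on thinned cells, 48 and 61 with counts thinned, and 37 and 38 with DESeq2. Without a count filter 77 were higher, and 236 were lower when mitochondrial, ribosomal and hemoglobin genes stayed in. Leave-one-out gave 50 to 149 higher and 53 to 157 lower. Fewer genes could be tested with 2 UMIs of Cd4 (832) and with counts thinned (986); elsewhere the cause was not tested. For single genes 412 of 448 values kept direction and call, and 36 lost the call. The rule on thinned cells cost most: of the 277 calls 244 could be tested and 39 were kept, 7 genes changed sign, and of the named genes Il2rb, Ahnak, Cdc25b, Nrp1, Dph5 and Ramp1 lost their calls.

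Against cytotoxic-type cells the counts higher and lower were 19 and 19 with at least 2 of the 6 genes, 0 and 0 with at least 4, 0 and 1 with 2 UMIs of Cd4, 0 and 0 with the rule on thinned cells, 0 and 3 with counts thinned, 0 and 2 with DESeq2, and 0 and 0 without the library block. Those higher were 2 with the deepest 5% of cells left out, 9 with mitochondrial, ribosomal and hemoglobin genes kept and 1 with at least 10 cells per set. Leave-one-out gave 0 to 2 higher and 4 to 5 lower. Ifitm2 reversed with the rule on thinned cells, to a log2 fold change of 0.17. For single genes 240 of 308 values kept direction and call, 59 lost the call and 8 gained it. Calls in this comparison are thus fragile, and the cause was not tested.

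Against Foxp3-positive effectors the counts were 1 and 1 with at least 2 of the 6 genes, 0 and 0 without the deepest 5% of cells, 1 and 1 with DESeq2, 6 and 3 without a count filter, 1 and 1 without the library block, and 6 and 13 with mitochondrial, ribosomal and hemoglobin genes kept. Those lower were 5 with at least 4 of the 6 genes, 5 without cells that carry other types' markers, 3 without TMM and 14 with all 29 Foxp3-positive cells. For single genes 172 of 227 values kept direction and call, and 55 lost the call. The rule on thinned cells, 2 UMIs of Cd4, at least 10 cells and leave-one-out left fewer than 2 libraries and could not be fitted.

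Between PDOX and anti-OX40/CpG members the genes past 2-fold numbered 5 higher with at least 4 of the 6 genes, 6 higher and 6 lower with 2 UMIs of Cd4, 28 and 7 with the rule on thinned cells, 33 and 31 with at least 30 UMIs, and 17 lower with mitochondrial, ribosomal and hemoglobin genes kept. Of single ratios 91 of 94 stayed within their intervals and 3 moved.

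Shares of members with a UMI were higher without thinning, as deeper counts must give: Gata3 51.3%, Maf 29.6%, Rora 29.6%, Stat4 20.0%, Runx3 24.3%, Tbx21 7.83%, Il2 13%, Id2 77.4%, Ccr2 31.3%, Cxcr6 33.9%, Icos 33.0%, Pdcd1 11.3% and Tnfrsf4 12.2%. Depth limits every statement on helper factors and cytokines, at a median of 1976 UMIs per member, and the sets hold few cells in the untreated and anti-PD-L1 libraries.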
